A study of Mus musculus with 15 samples.

Results

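Naive CD8+ T cells of Susd2-/- mice were compared with those of wild-type (WT) mice before any stimulation. The cells were chosen by their labels and make up 8 of the 15 samples of the series. Each sample is 1 sequencing lane, and after summing the lanes of a library the comparison holds 4 of the 8 libraries, 2 of WT cells (libraries 3 and 4) and 2 of Susd2-/- cells (libraries 3 and 4). Both genotypes were C57BL/6 mice of 8 to 10 weeks that carried OT-I, a transgenic T cell receptor for an ovalbumin peptide. The CD8+ cells came from the spleen and were left untreated (day 0). They were isolated with beads that remove other cells, so some RNA of other spleen cells can remain. The other 4 libraries, WT and Susd2-/- CD8+ cells from splenocytes cultured with the peptide for 3 days (day 3), serve here for the values of the same genes after activation. Whether the 2 libraries of a genotype stem from different mice is not stated in the labels. Each p-value therefore reflects spread among libraries alone, and that spread may be technical.

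SUSD2, the product of Susd2, is a sushi-domain protein of the cell membrane. A naive T cell circulates in a resting state with little RNA and protein synthesis, kept alive by interleukin-7 and weak receptor signals. A signal through the T cell receptor switches on the immediate early genes, transcription factors such as AP-1 together with the phosphatases that later shut the signal down, and only afterwards growth and division. Interferon-gamma acts on genes with 2 kinds of promoter element, GAS and ISRE, and induces the immunity-related GTPases (IRG), the guanylate-binding proteins (GBP) and antigen presentation.

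Levels are in CPM, counts scaled to a common library size with edgeR's TMM factors. The targeted gene, Susd2, had 2.81 and 2.73 CPM in WT and 0.0316 and 0.102 CPM in Susd2-/- libraries (90, 80, 1 and 3 counts), and it fell (adjusted p = 2.32e-05). Cd8a stood at 1225 and 1256 CPM in WT and 1226 and 1196 CPM in Susd2-/- cells, and Cd4 was at 0.410 CPM or less in each library. Of 9 CD8 T cell markers 5 fell and none rose (median -0.27; no call with the libraries of a genotype counted as 1), with a summed level of 5891 and 5816 CPM in WT and 5218 and 4874 CPM in Susd2-/- libraries. All 6 markers of CD4 and regulatory T cells were higher and 2 rose, Ctla4 and Ikzf2, with sums of 74.09 and 76.65 against 116.4 and 127.2 CPM. The part of such cells in the results was not tested. The 4 libraries held 26829807 to 30323080 counts. The first principal component of the day 0 libraries separated the genotypes and held 58.3% of the variance. Of 16057 genes tested, 3792 changed (23.6%, adjusted p below 0.05), of which 1848 rose (11.5%) and 1944 fell (12.1%) in Susd2-/- cells. At least 2-fold changes numbered 348 upward (2.17%) and 196 downward (1.22%), and the median log2 fold change of all genes was 0.01. Fewer genes changed without any 1 library: 2000 without WT library 3, 2059 without WT library 4, 2452 without Susd2-/- library 3 and 2021 without Susd2-/- library 4. Chi-square over its degrees of freedom was 3.37 between the WT libraries and 6.30 between the Susd2-/- libraries, against 3.01 to 3.17 between lanes of 1 library. With the 2 libraries of each genotype summed and counted as 1, so that the spread comes from day 3 alone, 776 genes changed, 770 of them among the 3792. In RNA of a cell population, fewer cells of a type and less RNA per cell cannot be told apart.

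**Figure D1:**
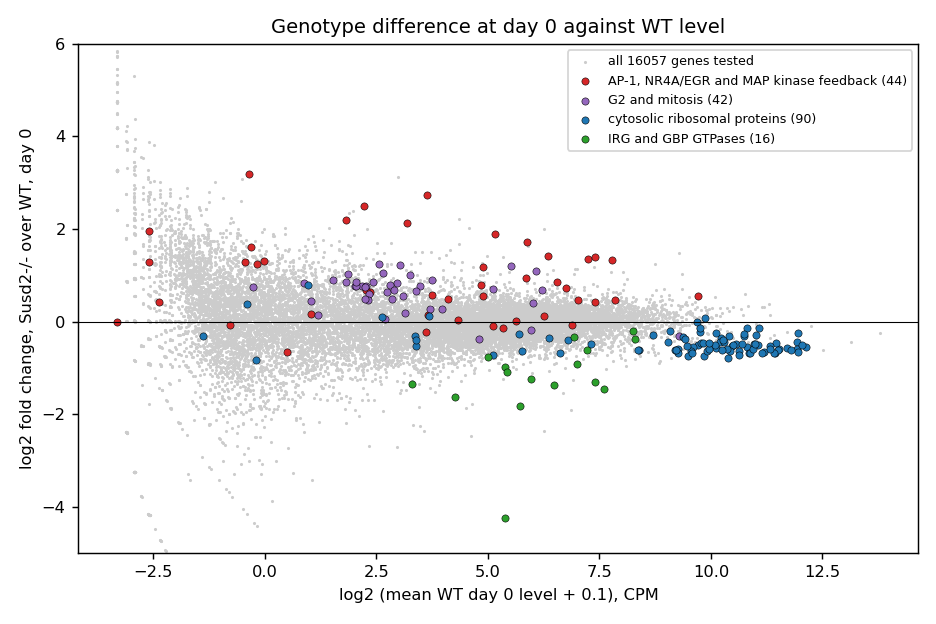
Each point is a gene, with the log2 of its mean WT level at day 0 (CPM plus 0.1) on the x axis and the log2 fold change of Susd2-/- over WT on the y axis. Early response genes (red) and mitosis genes (purple) lie mostly above 0, ribosomal protein genes (blue, at high levels) and the GTPase genes (green) mostly below it, and 27 genes lie outside the plotted range.

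The interferon-induced GTPases fell almost as a family. These proteins load onto the vacuoles of intracellular bacteria and parasites and break them. Of 16 measured IRG and GBP genes 15 fell, against 12.1% of all genes, with a median log2 fold change of -1.17 against 0.01 over all genes. All 16 were lower in both Susd2-/- libraries than in both WT libraries, which held for 31.4% of all genes. Summed over the list, WT libraries had 1765 and 1786 CPM and Susd2-/- libraries 1056 and 1054 CPM.

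The promoters of these genes are shown because the table of RefSeq promoters (GRCm38.p6, 250 bases before to 50 from the gene start) holds 9 of the 16 and all 9 contain the ISRE core (GAAA, any 2 bases, GAAA) on either strand. The same letters occur in 4.01% of the 10581 promoters of tested genes. The GAS letters TTCNNNGAA were in 6 of the 9 and in 8.48% of all promoters. The 120 bases before the start of Igtp (chr11:58199436-58199555, plus strand), Irgm2 (chr11:58214857-58214976, plus strand), Tgtp2 (chr11:49064213-49064332, minus strand) and Gbp2 (chr3:142620543-142620662, plus strand) are given 5′ to 3′ along the gene's strand, with both motifs in capitals.
Igtp: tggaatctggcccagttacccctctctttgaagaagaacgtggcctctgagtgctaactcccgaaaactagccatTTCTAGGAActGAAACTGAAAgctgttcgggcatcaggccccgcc
Irgm2: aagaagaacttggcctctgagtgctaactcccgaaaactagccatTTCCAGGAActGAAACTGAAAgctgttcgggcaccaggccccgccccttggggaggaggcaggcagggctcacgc
Tgtp2: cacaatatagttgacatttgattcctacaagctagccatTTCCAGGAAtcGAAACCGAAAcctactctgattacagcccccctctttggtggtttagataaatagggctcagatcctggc
Gbp2: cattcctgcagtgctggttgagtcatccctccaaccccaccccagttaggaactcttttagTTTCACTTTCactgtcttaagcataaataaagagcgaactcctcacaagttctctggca
In Igtp the GAS match spans bases -45 to -37 and the ISRE match bases -34 to -25 before the start. Irgm2 and Tgtp2 show the same order, GAS then ISRE, at -75 to -67 and -64 to -55 and at -81 to -73 and -70 to -61. Gbp2 holds an ISRE on the opposite strand at -59 to -50. The promoter of Ifi47, an IRG gene counted here in another list, held neither motif. A match is only a match of letters. Among genes that fell at least 2-fold, 13 of 128 promoters (10.2%) held the ISRE, and among those that rose at least 2-fold 10 of 218 (4.59%). The falling genes include IRG and GBP genes, among them the 4 shown here, so their share is not separate from that of the list.

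All 6 IRG genes fell. Igtp (also Irgm3), one of the regulatory IRG proteins, had 188 and 199 CPM in WT and 70.5 and 70.3 CPM in Susd2-/- libraries. Its log2 fold change was -1.46 ± 0.082 (SE; adjusted p = 1.99e-09), and the groups did not overlap. Irgm2, a second regulator, fell from 65.2 and 59.7 to 26.1 and 26.5 CPM (-1.25 ± 0.099, adjusted p = 8.63e-08). Irgm1, the third, had a smaller change, from 126 and 130 to 67.8 and 68.3 CPM (-0.91 ± 0.10, adjusted p = 2.98e-05). The effector IRG proteins are those that coat the vacuole. Tgtp2 was at 89.5 and 90.1 CPM in WT and 34.8 and 34.7 CPM in Susd2-/- cells (-1.37 ± 0.091), and its near-identical copy Tgtp1 at 51.0 and 54.6 against 14.8 and 15.1 CPM (-1.82 ± 0.14). Reads of this pair may be split between them. Iigp1, another effector, had the lowest fold change of the list, with 43.8 and 39.5 CPM in WT and 2.91 and 1.44 CPM in Susd2-/- libraries (-4.24 ± 0.44, adjusted p = 0.00342). Ifi47, an IRG gene counted here with the interferon-stimulated genes, stood at 276 and 260 against 155 and 145 CPM (-0.84 ± 0.076).

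Of the 10 measured GBP genes 9 fell, and their changes were uneven. Gbp2, with 170 CPM in both WT libraries, stood at 70.9 and 67.2 CPM in Susd2-/- cells (-1.30 ± 0.091, adjusted p = 1.30e-07). Gbp3 fell from 41.8 and 42.1 to 20.6 and 22.01 CPM and Gbp5, which also promotes inflammasome assembly, from 44.5 and 41.2 to 20.2 and 19.8 CPM. Gbp9 had 300 and 306 CPM in WT and 261 and 262 CPM in Susd2-/- cells and did not pass (adjusted p = 0.565). Gbp4, from 312 and 319 to 244 and 242 CPM, and Gbp8, from 125 and 120 to 94.7 and 100 CPM, fell by less (log2 fold changes -0.38 and -0.33). The calls of Gbp4, Gbp5, Gbp7, Gbp8 and Gbp10 were lost without at least 1 of the 4 libraries, and 10 to 13 members were called without 1 of them. When the libraries of a genotype were counted as 1, 9 of 16 were. GBP genes are close copies of each other, so the share of each is uncertain.

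**Figure D2:**
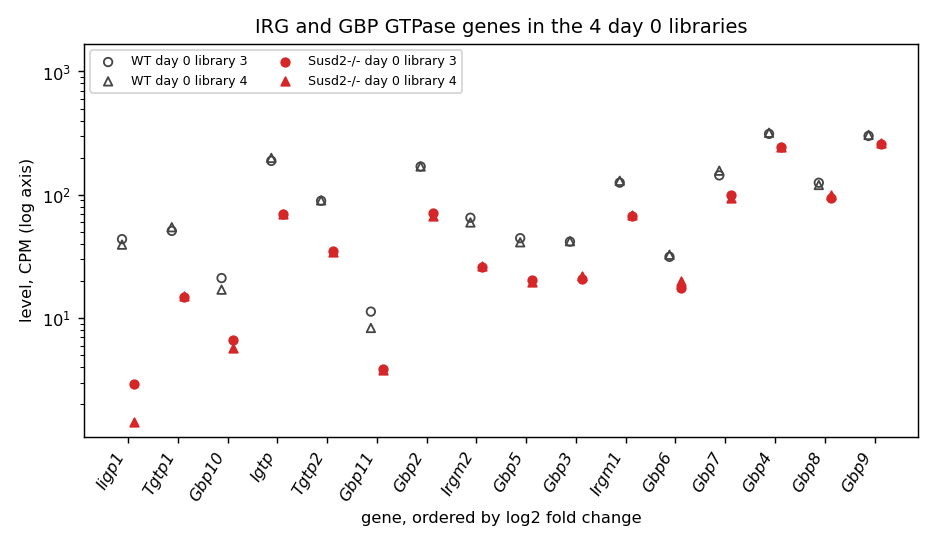
Level in CPM (log axis) of each of the 16 IRG and GBP genes in the WT (open) and Susd2-/- (filled) libraries at day 0, ordered by log2 fold change. The Susd2-/- libraries lie below the WT libraries at each gene, from Iigp1 (43.8 and 39.5 against 2.91 and 1.44 CPM) to Gbp9, which did not pass the test.

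Genes of interferon regulatory factors moved unevenly. Irf1, a transcription factor that binds the ISRE, fell from 314 and 304 to 213 and 199 CPM (-0.59 ± 0.064, adjusted p = 2.79e-06). Irf9, a factor of type I interferon signalling, was at 117 and 116 against 113 and 106 CPM and did not pass (adjusted p = 0.433). In the IRF family of 8 genes, Irf1 and Irf8 fell and Irf4, which follows T cell receptor signals, rose from 13.6 and 12.5 to 39.3 and 34.1 CPM. The call of Irf8 (11.7 and 10.4 against 8.86 and 6.84 CPM) was lost without WT library 3 or Susd2-/- library 4.

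Antigen presentation by MHC class I moved in the same direction by smaller amounts. Of 20 genes of MHC class I and peptide loading 9 fell and 2 rose, with a median of -0.34. Lower in both Susd2-/- libraries were 17 of them (31.4% of all genes were). All 11 heavy chain genes lay below the WT libraries, although only 5 passed the test. B2m, the shared light chain, stood at 1821 and 1835 CPM in WT and 1383 and 1301 CPM in Susd2-/- libraries (-0.45 ± 0.068, adjusted p = 9.81e-05). Tap1, a subunit of the peptide transporter, fell from 336 and 337 to 253 and 246 CPM (-0.43 ± 0.064). Nlrc5, the transactivator of class I genes, chosen after its values were seen, fell from 342 and 345 to 268 and 281 CPM (adjusted p = 0.00395). The interferon-induced proteasome subunits Psmb9 (128 and 125 to 78.7 and 73.2 CPM, -0.74 ± 0.071) and Psmb8 (248 and 237 to 173 and 162 CPM, -0.53 ± 0.064) fell as well. With the libraries of a genotype counted as 1, 2 of the 20 class I genes fell and none rose.

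Classical interferon-stimulated genes did not move as one. Of 34 measured 5 fell and 1 rose, with a median of -0.11. Over all genes 12.1% fell and 11.5% rose, so the falls in this list were near the share of all genes. Ifit1bl1 fell from 119 and 113 to 29.97 and 32.1 CPM (-1.90 ± 0.15). DESeq2 did not make this call (adjusted p = 0.0663), and it was also lost with the libraries of a genotype counted as 1. Ifit2, an antiviral protein that binds viral RNA, fell from 64.8 and 64.4 to 43.7 CPM in both Susd2-/- libraries. Oas2, an enzyme that senses double-stranded RNA, was the member that rose, from 39.1 and 37.1 to 61.4 and 61.0 CPM. Without any 1 library 3 of the 34 fell. In this list 15 of 24 promoters held the ISRE letters.

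In the Ly6 family of surface antigens 2 of 7 genes fell and 1 rose. Ly6a (Sca-1), a surface antigen of activated and memory T cells, fell from 76.4 and 75.7 to 15.2 and 14.3 CPM (-2.36 ± 0.13, adjusted p = 2.60e-06). Its neighbour in the family, Ly6c2, stood at 121 and 129 against 117 and 109 CPM and did not pass (adjusted p = 0.708). Of 16 caspase and inflammasome genes 4 fell and 1 rose. Casp1, which cleaves interleukin-1 beta, fell from 11.5 and 10.8 to 1.96 and 2.73 CPM, Casp4 from 4.19 and 3.79 to 1.01 and 1.09 CPM, the DNA sensor Aim2 from 44.1 and 44.6 to 26.2 and 26.6 CPM, and the adaptor Pycard from 35.0 and 36.2 to 20.2 and 21.0 CPM. Nlrp3, another sensor and the member that rose, had no counts in WT and 0.728 and 0.820 CPM in Susd2-/- libraries (adjusted p = 0.00294, and 0.0747 with the libraries of a genotype summed and counted as 1).

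Immediate early genes were higher in Susd2-/- cells. Of 14 AP-1 genes 8 rose and none fell (median 0.79), against 11.5% of all genes that rose. Fosl2, a Fos family subunit, stood at 32.2 and 39.7 CPM in WT and 133 and 135 CPM in Susd2-/- libraries (1.90 ± 0.13, adjusted p = 2.18e-06). Jun, its usual partner, rose from 168 and 172 to 458 and 433 CPM (1.39 ± 0.074). Junb was higher in both Susd2-/- libraries, 1327 and 1116 against 834 and 843 CPM, but passed only with the day 0 libraries fitted alone (adjusted p = 1.08e-09; 0.237 in the fit of all libraries). The small Maf protein gene Mafk rose from 94.1 and 93.4 to 169 and 168 CPM. The call of Jund was lost without any 1 of the libraries. Counted as 1 library per genotype, 7 of the 14 rose.

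The NR4A receptors and EGR factors follow receptor signals within the hour. All 3 NR4A genes rose: Nr4a2 had the largest change, from 4.53 and 4.58 to 24.3 and 27.2 CPM (2.50 ± 0.14), and Nr4a3 the smallest, from 13.3 CPM in both WT libraries to 19.2 and 20.3 CPM (0.57 ± 0.085). Egr1 rose from 28.3 and 30.7 to 66.7 and 67.5 CPM (1.19 ± 0.087), whereas Egr3 stood at 12.7 and 12.5 against 13.8 CPM in both Susd2-/- libraries and did not pass (adjusted p = 0.538). Egr2 was called (4.09 and 5.40 against 7.41 and 7.90 CPM) but not without WT library 3 or Susd2-/- library 4. Of the 14 genes of the list 7 rose, and 4 with the libraries of a genotype counted as 1.

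Of 16 brakes of the MAP kinase pathway 11 rose and none fell, with a median of 0.86. They comprise 7 of 10 dual-specificity phosphatases, which remove the activating phosphates of MAP kinases, and 4 of 6 Sprouty and Spred proteins, which act upstream of Ras and Raf. Dusp4 stood at 4.12 and 2.73 CPM in WT and 14.7 and 17.2 CPM in Susd2-/- libraries (2.20 ± 0.17, adjusted p = 1.76e-05). Dusp10, which acts on JNK and p38, rose from 57.2 and 57.8 to 112 and 107 CPM (0.93 ± 0.085), and Dusp6, which acts on ERK, from 29.2 and 28.1 to 51.4 and 47.7 CPM (0.79 ± 0.098). Spry1 rose from 0.812 and 0.615 to 1.61 and 2.80 CPM, and Spry2 stood at 12.8 and 11.4 against 10.1 and 10.8 CPM and did not pass (adjusted p = 0.397). Counting the libraries of a genotype as 1 left 7 of the 16. The AP-1 site TGANTCA was in no promoter of the AP-1 (13), NR4A and EGR (11) and MAP kinase feedback (14) genes in the RefSeq table, and in 6.24% of all promoters.

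**Figure D3:**
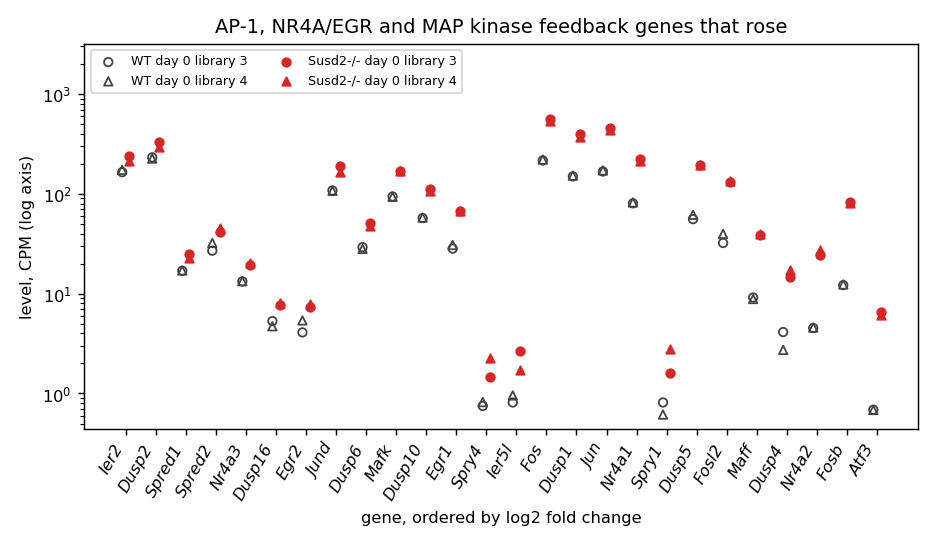
Level in CPM (log axis) of the AP-1, NR4A and EGR, and MAP kinase feedback genes that rose and had a mean over 1 CPM in Susd2-/- cells, in the 4 day 0 libraries, ordered by log2 fold change. The Susd2-/- libraries (filled) lie above the WT libraries (open) at each gene, as for Fosl2 (32.2 and 39.7 against 133 and 135 CPM).

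The kinase gene Sik1 had the smallest p-value of all genes in the comparison. Salt-inducible kinases hold back the CREB coactivators, and cAMP signals induce Sik1. It stood at 77.2 and 76.6 CPM in WT and 304 and 310 CPM in Susd2-/- libraries (2.00 ± 0.064, adjusted p = 4.16e-13). Of 16 SIK and cAMP genes 8 rose and none fell, and 12 were higher in both Susd2-/- libraries (33.6% of all genes were). Among them were Pde4d, a cAMP phosphodiesterase (43.0 and 44.3 to 66.5 and 64.7 CPM), and the cAMP-responsive repressor gene Crem (13.3 and 13.5 to 19.1 and 18.1 CPM). Without WT library 3, 5 of the 16 rose, and with the libraries of a genotype counted as 1, 2.

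Krüppel-like factors, which include regulators of T cell quiescence and trafficking, were mixed: 6 of 12 rose and Klf3 fell. Klf11 rose from 17.1 and 18.6 to 44.6 and 42.4 CPM (1.29 ± 0.12). Klf3 stood at 331 and 326 against 269 and 273 CPM (-0.28 ± 0.064), a call lost without WT library 3. Within the NF-kB list of 17 genes, all 5 subunits were higher in both Susd2-/- libraries (33.6% of all genes were) and 4 of them rose. Rel, the subunit most tied to T cell activation, rose from 46.3 and 52.7 to 73.9 and 78.7 CPM (0.62 ± 0.076). Of 12 inhibitors of the pathway 2 rose and 1 fell, and the enzyme gene Tnfaip3 (A20) led them, from 618 and 622 to 1735 and 1741 CPM (1.49 ± 0.069, adjusted p = 1.01e-10). Counting the libraries of a genotype as 1 left 3 rises in the 17 genes.

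Regulators that shorten the life of cytokine and early response mRNAs rose together, 9 of 11 with 1 fall (median 0.51). Zfp36l2, which binds AU-rich elements, stood at 646 and 667 CPM in WT and 1375 and 1320 CPM in Susd2-/- libraries (1.04 ± 0.067, adjusted p = 3.71e-09). Its relatives Zfp36 (168 and 160 to 292 and 281 CPM) and Zfp36l1 (268 and 281 to 397 and 384 CPM) rose as well. Tob1, an antiproliferative protein that recruits deadenylases, rose from 50.8 and 52.6 to 81.7 and 77.1 CPM. The endonuclease gene Zc3h12a (Regnase-1) rose from 27.7 and 29.8 to 49.1 and 46.0 CPM, while its relative Zc3h12d was the member that fell, from 48.5 and 50.9 to 33.9 and 34.1 CPM. The fit that counts the libraries of a genotype as 1 had 6 rises and 1 fall.

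Chaperones and the integrated stress response also rose. Of 21 heat shock genes 13 rose and 1 fell (median 0.34). Hsph1, a large cytosolic chaperone, stood at 167 CPM in both WT libraries and at 372 and 387 CPM in Susd2-/- cells (1.19 ± 0.065, adjusted p = 3.90e-10), and Hsp90ab1 rose from 1738 and 1737 to 2688 and 2588 CPM (0.60 ± 0.057). Hspa5 (BiP), the chaperone of the endoplasmic reticulum, rose from 470 and 464 to 637 and 631 CPM. The heat shock element (GAA, any 2 bases, TTC, any 2 bases, GAA) was in 4 of 16 promoters of the list and in 0.577% of all promoters. Of 17 stress genes 8 rose and 16 were higher in both Susd2-/- libraries (33.6% of all genes were). They include Atf4, the transcription factor of the integrated stress response (153 and 163 to 224 and 211 CPM), its target Ddit3 (22.6 and 20.7 to 43.2 and 34.8 CPM), and Ppp1r15a, which ends the response (217 in both WT libraries to 471 and 437 CPM). Rhob, a small GTPase gene induced by stress, had the largest rise of them, from 20.5 CPM in both WT libraries to 99.2 and 90.5 CPM (2.21 ± 0.17). With the libraries of a genotype counted as 1, 3 of the 21 heat shock genes and 4 of the 17 stress genes rose.

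Genes of cell division rose although the cells were unstimulated. Of 42 G2 and mitosis genes 33 rose and 2 fell, with a median of 0.74. The promoters of Espl1, of Ube2c (chosen after its values were seen) and of Kif11 from the separate list of mitotic kinesins show 2 elements known from this gene class, the CHR and the CCAAT box. The CHR letters TTTGAA were in 25 of 34 promoters of the list (73.5%) and in 14.8% of all promoters, and CCAAT in 25 of 34 against 42.9%. Among the kinesins 10 of 12 promoters held the CHR letters and 8 of 12 CCAAT. Both motifs were searched on both strands and are in capitals in the 120 bases before the start of Espl1 (chr15:102296173-102296292, plus strand), Kif11 (chr19:37376262-37376381, plus strand) and Ube2c (chr2:164769809-164769928, plus strand).
Espl1: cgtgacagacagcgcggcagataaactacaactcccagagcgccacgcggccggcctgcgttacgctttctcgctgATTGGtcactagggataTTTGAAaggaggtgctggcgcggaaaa
Kif11: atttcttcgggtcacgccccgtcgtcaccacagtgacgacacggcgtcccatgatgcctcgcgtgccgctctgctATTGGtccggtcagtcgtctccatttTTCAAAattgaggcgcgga
Ube2c: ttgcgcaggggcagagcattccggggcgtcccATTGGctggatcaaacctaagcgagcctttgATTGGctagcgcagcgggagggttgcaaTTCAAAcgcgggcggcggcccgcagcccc
The CHR match lies between bases -29 and -14 in the 3 windows, and each has a CCAAT match further from the start. Of DNA replication promoters 5 of 31 held the CHR letters, and 6 of 31 (19.4%) the E2F letters TTTGGCGC, found in 1.1% of all promoters.

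Espl1 encodes separase, the protease that lets sister chromatids part. It stood at 5.97 and 5.70 CPM in WT and 14.6 and 12.9 CPM in Susd2-/- libraries (1.24 ± 0.095, adjusted p = 5.39e-08). Ube2c, which works with the anaphase-promoting complex, rose from 4.00 and 3.14 to 7.69 and 6.84 CPM. The 2 members that fell were Smc4, a condensin subunit (628 and 611 to 490 and 511 CPM), and Pttg1, the inhibitor of separase (27.0 and 28.2 to 22.4 and 19.8 CPM). Both were chosen after their values were seen.

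Kinesins that build and pull the spindle rose in 11 of 13 cases, with a median of 0.57, and none fell. Kif11, which slides spindle microtubules apart, stood at 16.4 and 18.2 against 25.4 and 27.9 CPM (0.63 ± 0.079, adjusted p = 1.30e-05). Kif18b (3.59 and 3.62 to 7.79 and 6.32 CPM) and Kif4 (3.53 and 4.47 to 7.31 and 8.14 CPM), which act on microtubule length and on the central spindle, rose by 0.97 and 0.95 on the log2 scale. Kif20b, at 30.8 and 29.3 against 31.2 and 33.5 CPM, did not pass (adjusted p = 0.342). Without WT library 3 or Susd2-/- library 4, 7 of the 13 rose, and with the libraries of a genotype counted as 1, 6. Of 39 replication genes 17 rose and none fell (median 0.25), and 6 with the libraries counted as 1. Mcm10, which helps to open the replication fork, rose from 2.47 and 3.25 to 6.39 and 5.54 CPM. Among 10 cyclins of the G1 phase and CDK inhibitors, Cdkn1a rose and Ccne1 and Cdkn2d fell, beside 11.5% rising and 12.1% falling over all genes. The linker histone gene H1f2 rose from 23.4 and 24.4 to 101 and 93.2 CPM (2.02 ± 0.11). Genes of quiescence did not fall with these: of 14 listed, 8 rose and 2 fell, and 2 rose and 1 fell with the libraries counted as 1. Slfn2, needed to keep T cells resting, fell from 418 and 410 to 278 and 267 CPM (-0.60 ± 0.061), and Btg1 and Btg2 rose (1455 and 1426 to 1856 and 1750 CPM, and 248 and 252 to 325 and 319 CPM). Tsc22d3 (GILZ), a glucocorticoid target, rose from 497 and 483 to 823 and 767 CPM.

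Receptors of the common gamma chain family carry the interleukin-7 and interleukin-15 signals on which naive CD8+ cells depend. Of 8 genes 5 rose and none fell (median 0.30). Il7r stood at 602 and 621 CPM in WT and 779 and 784 CPM in Susd2-/- libraries (0.35 ± 0.058, adjusted p = 0.000218), and Il4ra at 216 and 210 against 272 and 267 CPM. The gamma chain itself, Il2rg, was at 250 and 242 against 254 and 241 CPM (adjusted p = 0.967). Without WT library 4 or Susd2-/- library 4, 3 of the 8 rose, and with the libraries counted as 1, 1. Of 22 JAK, STAT and SOCS genes 3 rose and 3 fell, near the shares of all genes that rose (11.5%) and fell (12.1%). Amino acid transporters rose in 10 of 12 cases (median 0.42), with 6 without Susd2-/- library 4 and 5 with the libraries counted as 1. Slc7a5, the large neutral amino acid transporter, rose from 34.1 and 33.5 to 48.6 and 46.9 CPM (0.50 ± 0.065). In the Myc network of 12 genes, Myc rose from 106 and 112 to 157 and 142 CPM and Mlxip from 138 and 147 to 229 and 252 CPM.

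Genes of the T cell receptor complex were lower, and many of its signalling genes higher. Of 10 genes of the complex and its coreceptor 6 fell and none rose, by small amounts (median -0.26). Cd3g stood at 585 and 574 CPM in WT and 455 and 416 CPM in Susd2-/- libraries (-0.41 ± 0.063, adjusted p = 0.000105), Cd3d fell from 527 and 513 to 413 and 408 CPM, and Trbc2 from 1123 and 1080 to 887 and 785 CPM. Cd3e, at 210 and 211 against 217 and 214 CPM, and Trac, at 386 and 374 against 371 and 334 CPM, did not pass. With the libraries of a genotype counted as 1, no member passed, and the call of Cd8b1 (978 and 971 against 846 and 769 CPM) was lost without WT library 3, WT library 4 or Susd2-/- library 4. Of 33 proximal signalling genes 17 rose and 2 fell, 8 of 17 kinases and adaptors and 9 of 16 brakes among the 17. The 4 of smallest p-value were Ptpn22, Sh2d2a, Cblb and Ptpn6. Ptpn22, a phosphatase that restrains Lck and Zap70, rose from 210 and 200 to 321 and 309 CPM (0.62 ± 0.062), and Cblb, a ubiquitin ligase that raises the threshold of activation, from 83.2 and 89.3 to 122 and 126 CPM (0.53 ± 0.066). Without WT library 3 or WT library 4, 9 of the 33 rose, without either Susd2-/- library 11, and with the libraries counted as 1, 4.

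Surface receptors for costimulation and migration shifted in both directions. Cd28, the main costimulatory receptor, doubled from 78.4 and 82.1 to 162 and 165 CPM (1.03 ± 0.068, adjusted p = 5.29e-09). Of the other 18 costimulatory genes none rose and 7 fell (3 fell without any 1 library), among them the SLAM family receptors Slamf7 (11.8 and 12.1 to 6.80 and 5.91 CPM) and Cd84 (164 and 163 to 129 and 135 CPM). Of 23 homing receptor genes 6 rose and 11 fell. Cxcr4, a chemokine receptor chosen after its values were seen, rose from 257 and 265 to 576 and 528 CPM (1.08 ± 0.13). Counting the libraries of a genotype as 1, 3 homing genes rose and 4 fell. Of 22 natural killer receptor genes 8 fell and none rose, and leaving out any 1 library left 4 falls. Klra5 stood at 9.22 and 6.08 CPM in WT and 1.11 and 1.23 CPM in Susd2-/- libraries (-2.71 ± 0.36), and Klra6 at 2.03 and 1.95 against 0.127 and 0.239 CPM, and reads of the Klra family may be shared between its close copies. Of 11 cytotoxic genes 4 fell (2 without WT library 4 or Susd2-/- library 4), including Nkg7, a granule membrane protein, from 254 and 259 to 219 and 204 CPM.

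Splicing regulators formed a wide but shallow group. Of 37 genes of the SR, hnRNP and CLK families 20 rose and none fell, and 32 were higher in both Susd2-/- libraries (33.6% of all genes were), with a median of 0.23. Tra2a, a splicing activator, stood at 154 and 160 against 224 and 244 CPM (0.58 ± 0.065, adjusted p = 3.93e-06), and Hnrnph1 at 530 and 537 against 738 and 752 CPM. The count was 9 without WT library 3 or Susd2-/- library 4, 12 without WT library 4, 13 without Susd2-/- library 3 and 1 with the libraries counted as 1. Of 25 transcription factors of effector and memory cells 9 rose and none fell, 3 to 5 without 1 library. Myb, which holds back differentiation, rose from 26.4 and 24.6 to 58.0 and 56.7 CPM (1.17 ± 0.095), and Runx3, which maintains the CD8 lineage, from 147 and 146 to 192 and 168 CPM (0.30 ± 0.070).

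Among the 12 rising genes of largest fold change (average log2 CPM of at least 4 over both days), 3 had low levels at day 0. Vegfa, the vascular growth factor, stood at 0.156 and 0.239 CPM in WT and 1.65 and 1.30 CPM in Susd2-/- libraries (2.89 ± 0.43, adjusted p = 0.000127), and Sema4c, a semaphorin, at 0.250 and 0.137 against 0.854 and 0.889 CPM. The call of Scd1, a fatty acid desaturase (0.125 and 0.0342 against 0.949 and 1.47 CPM), was lost without any 1 library. Among the 12 falling genes, Ms4a4c, a membrane protein, fell from 61.4 and 65.0 to 30.2 and 28.5 CPM (-1.11 ± 0.12) and the potassium channel gene Kcnk5 from 4.56 and 4.78 to 1.96 and 1.98 CPM. Pdcd1 (PD-1), an inhibitory receptor, stood at 1.62 and 1.95 against 1.14 and 0.479 CPM, and its call was lost without WT library 4 or Susd2-/- library 4.

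**Figure D4:**
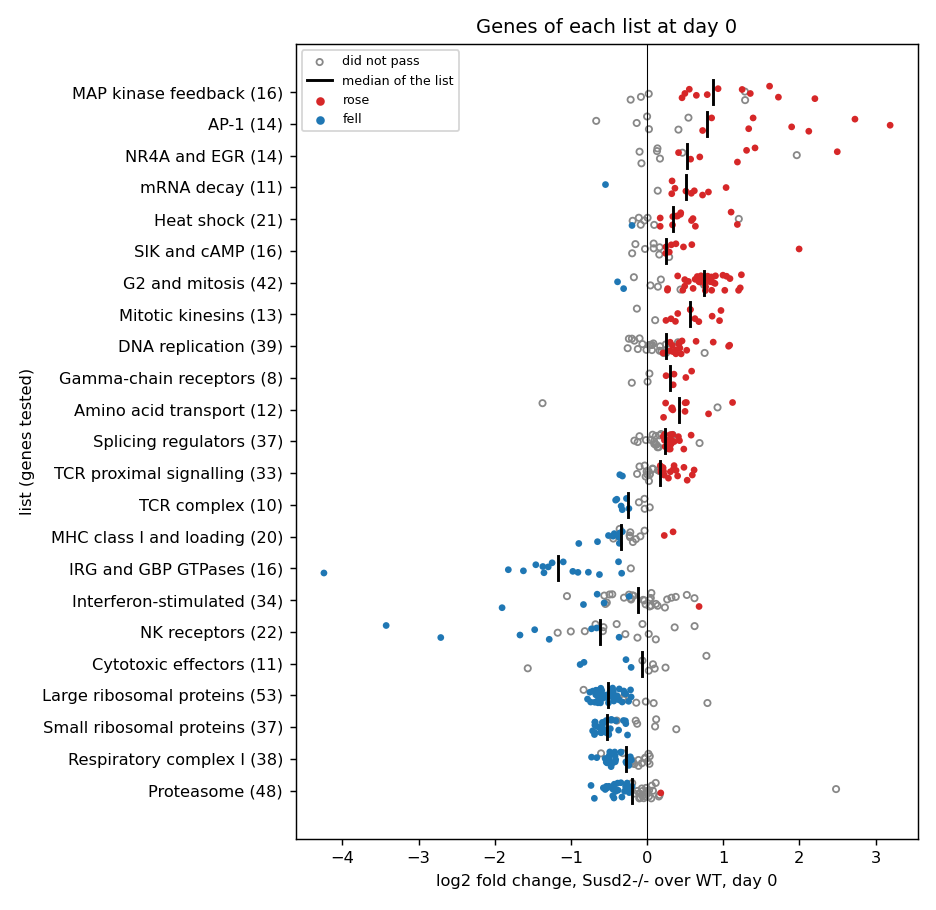
Each point is a gene of a list, with its log2 fold change of Susd2-/- over WT at day 0 on the x axis; filled points passed the test (red rose, blue fell), open points did not, and the black bar is the median of the list. The medians of the early response and mitosis lists lie to the right of 0 ( 0.86 for MAP kinase feedback, 0.74 for G2 and mitosis) and the GTPase list furthest to the left (-1.17).

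Genes of ribosomal proteins and respiratory complexes were mostly lower. Of 90 cytosolic ribosomal protein genes 77 fell and none rose (median -0.52), and 83 lay below both WT libraries (31.4% of all genes did). Their summed level was 123400 and 121800 CPM in WT and 90730 and 82460 CPM in Susd2-/- libraries. Rps3a1, a protein of the small subunit, stood at 4015 and 3902 against 2603 and 2435 CPM (-0.65 ± 0.061, adjusted p = 5.35e-07). Rpl31, of the large subunit, fell from 1592 and 1593 to 1014 and 929 CPM (-0.71 ± 0.062). Ribosomal protein genes have many pseudogenes that can share reads. Of 65 translation factors 21 fell and 8 rose, and 14 fell and 3 rose without WT library 3. Of 20 aminoacyl-tRNA synthetase genes, which charge tRNAs, 5 fell and 3 rose, and 2 fell and 2 rose without WT library 3. Eif3e (544 and 557 to 324 and 316 CPM) and Eif3m (250 and 246 to 151 and 150 CPM), subunits of the initiation factor that joins mRNA to the small ribosomal subunit, fell by 0.78 and 0.72 on the log2 scale, and Eif5 rose from 432 and 415 to 572 and 571 CPM. Of 77 mitochondrial ribosomal protein genes 25 fell and 1 rose.

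Of 82 nuclear genes of respiratory complexes I to V, 45 fell and 1 rose (median -0.25). Complex I, which takes electrons from NADH, had 21 of 38, and complex V, the ATP synthase, 11 of 17. Ndufa6 stood at 90.7 and 88.2 against 60.6 and 52.5 CPM (-0.66 ± 0.091), and Atp5g2, a subunit of the rotor, at 95.6 and 105 against 66.9 CPM in both Susd2-/- libraries (-0.58 ± 0.068). All 13 mitochondrially encoded mRNAs lay below both WT libraries (31.4% of all genes did). Of them 4 passed, such as mt-Nd1 (2036 and 2076 to 1612 and 1502 CPM). Of 48 proteasome genes 24 fell and 1 rose, among them Psma2 of the core (180 and 179 to 129 and 116 CPM) and the interferon-induced activator subunit Psme2 (224 and 217 to 166 and 141 CPM). Without Susd2-/- library 4 the falls numbered 67 for the cytosolic ribosomal proteins, 25 for the respiratory genes, 17 for the proteasome and 12 for the mitochondrial ribosomal proteins, and with the libraries of a genotype counted as 1 they numbered 57, 14, 8 and 7.

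The direction of change went with the exonic length of the gene, the bases covered by the exons of all its annotated transcripts. Among protein-coding genes of an average log2 CPM of at least 4, 60.4% of the 111 genes with under 1000 exonic bases fell and 2.70% rose. The share that fell was 36.4% between 1000 and 2000 bases, 21.7% up to 4000, 13.7% up to 8000 and 8.95% above, while the share that rose went from 5.30% through 12.4% and 20.6% to 28.3%. Without the ribosomal protein and respiratory genes, 54.9% of the 82 shortest genes fell, and 8.89% of the longest. The ribosomal protein genes had a median exonic length of 1722 bases and the respiratory genes of 1550, whereas the IRG and GBP genes, at 3782 bases, were longer. Some lists that rose were longer still, with medians of 8431 bases for the SIK and cAMP genes and 6957 for the kinesins. Amino acid transport had 6514, splicing 5797 and G2 and mitosis 4919. Other rising lists were shorter than the IRG and GBP genes, with 3530 bases for mRNA decay, 3337 for NR4A and EGR and 3222 for MAP kinase feedback. The AP-1 genes had 2326 and the stress genes 2237. The part of length in the falls of the short-gene lists and in the rises of the long-gene lists was not tested.

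**Figure D5:**
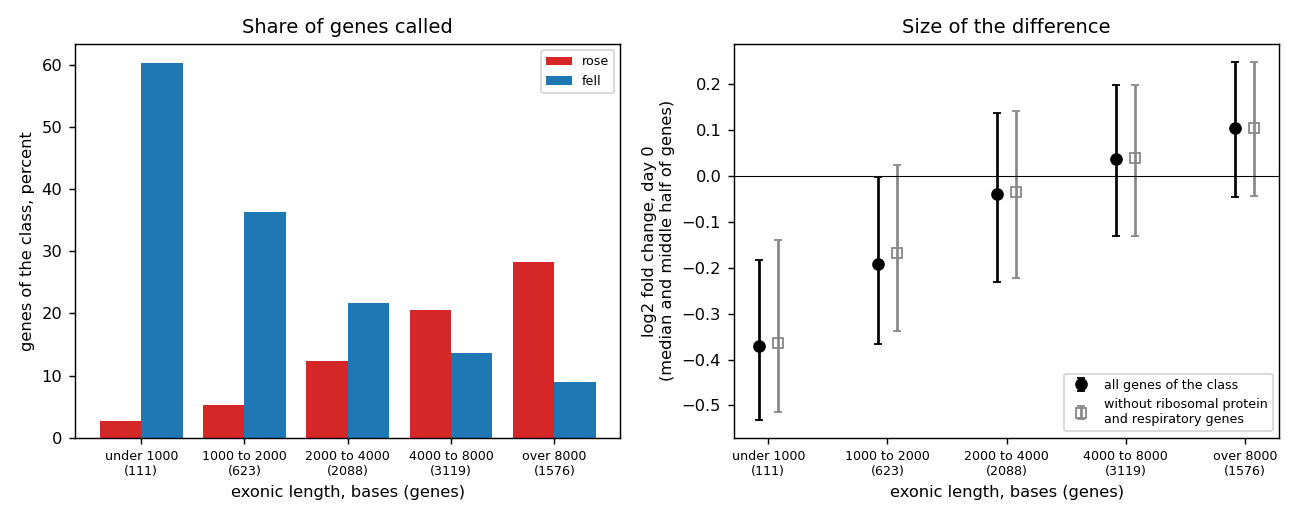
Left, percent of protein-coding genes in each class of exonic length (bases, x axis) that rose (red) or fell (blue) at day 0, for genes of an average log2 CPM of at least 4. Right, the median log2 fold change of each class with its interquartile range, for all genes (black) and without ribosomal protein and respiratory genes (grey): it runs from -0.37 under 1000 bases to 0.11 over 8000 bases.

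Transcripts of other spleen cells were present at low levels and differed between the genotypes. Of 20 markers of red pulp macrophages and monocytes 10 rose and 1 fell (median 1.04), and their summed level was 289.3 and 297.7 CPM in WT and 344.7 and 323.3 CPM in Susd2-/- libraries. Vcam1 stood at 10.8 and 12.2 against 32.9 and 32.1 CPM, Axl at 9.47 and 8.23 against 20.2 and 18.4 CPM and Adgre1 (F4/80, chosen after its values were seen) at 2.50 and 3.01 against 7.06 and 6.46 CPM. Ctss, which T cells also express, was the marker that fell, from 164 and 173 to 104 and 99.4 CPM. It made up most of the WT sum, so its fall held down the difference in the summed level. The count of macrophage markers that rose was 6 without WT library 3, 5 without Susd2-/- library 3, 7 without either of the others and 3 with the libraries counted as 1. Of 10 B cell markers 9 were higher in both Susd2-/- libraries and 2 rose (Ighm and Pax5; at most 1 without any 1 library). Over all genes, 33.6% were higher in both Susd2-/- libraries. Other transcripts of B lineage cells went differently: of 8 plasma cell markers 2 rose and 2 fell. Of 23 immunoglobulin V genes 11 fell and 1 rose, with a median of -1.73. The part of these other spleen cells in the rises of macrophage-expressed early genes such as Klf4, Atf3, Maff and Nlrp3 was not tested. Of 12 natural killer and innate lymphoid markers 1 rose and 3 fell (none rose and 1 fell without any 1 library), and Ncr1 was at 3.41 and 3.79 against 2.28 and 3.32 CPM (adjusted p = 0.559).

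Genes near Susd2 were called about as often as genes elsewhere. Susd2 lies at chr10:75636706-75644008 on the minus strand (GRCm38). Of 30 other tested genes within 1 Mb, 2 rose (Smarcb1 and Mcm3ap) and 5 fell (Gucd1, Snrpd3, Lrrc75b, Gstt2 and Ybey), which are named after their values were seen. These shares, 6.67% rising and 16.7% falling, stand beside 11.5% and 12.1% of all genes. Lrrc75b had the largest change, from 34.3 and 31.1 to 14.5 and 17.4 CPM (-1.04 ± 0.16). Ggt5 and Cabin1, the tested genes on either side of Susd2, did not pass (adjusted p = 0.140 and 0.475).

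Few genes were called after 3 days with the peptide. At day 3, 22 of 16057 genes changed (0.137%), 8 of them upward (0.0498%) and 14 downward (0.0872%). The count was 251 without WT library 1, 380 without Susd2-/- library 1, 6 without Susd2-/- library 2, 66 with DESeq2 and 138 with no filter. Fitted alone, the day 3 libraries had a biological coefficient of variation of 10.1% and the day 0 libraries of 5.38%. The counts of both days come from 1 fit of all libraries with a shared spread (8.09%). The part of spread in the low count at day 3 was not tested. An interaction of genotype and day was called for 2164 genes (13.5%), and for 1058 to 2481 without 1 library. It was called for 12 of 16 IRG and GBP genes, whose median log2 fold change at day 3 was 0.01, and for 7 of 14 AP-1, 11 of 16 MAP kinase feedback, 30 of 42 G2 and mitosis and 70 of 90 cytosolic ribosomal protein genes. Igtp had a log2 fold change of -0.01 and Sik1 of -0.15 at day 3 (interaction adjusted p = 3.52e-07 and 4.76e-11). Of the 1848 genes that rose at day 0, 851 were higher and 978 lower in Susd2-/- cells at day 3, and 984 had an interaction. Of the 1944 that fell at day 0, 1106 were higher and 823 lower at day 3, and 991 had an interaction. The interaction contains the day 0 difference by which these genes were chosen, so its share among them is raised by that choice.

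In the fit of all libraries 13 genes changed on both days, a number that rests on the unstable count at day 3, and they are named after their values were seen. Gm28438, Igf2bp3, Tmem181b-ps, Nnt and Bcl2l11 rose on both days and mt-Nd3, Cul9, Fam189b and H2-Q6 fell on both, while Lmna, Pcyt1a, Furin and Pim3 rose at day 0 and fell at day 3. Bcl2l11 (Bim), which kills T cells that lose survival signals, stood at 82.5 and 82.8 against 132 and 137 CPM at day 0. Nnt, a mitochondrial transhydrogenase whose gene carries a deletion in the C57BL/6J substrain, stood at 15.8 and 14.5 CPM in WT and 25.7 and 25.6 CPM in Susd2-/- libraries at day 0 (log2 fold change 0.76 ± 0.14), and its log2 fold change at day 3 was 0.72. The labels give C57BL/6 with no substrain, so a difference of substrain between the genotypes cannot be told apart from the knockout.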

How the data were processed

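Poly(A) RNA of CD8+ T cells was sequenced from stranded libraries, per the labels' protocols. The authors deposited raw counts per gene symbol, per the file header. GRCm38, Subread 2.0.1, SAMtools 1.10, HISAT2 2.1.0 and fastp 0.23.2 appear in the submitters' processing notes. What each tool did, its annotation, strand setting and rule for multiple alignments is not given in the sources used here, so near-identical copies and overlapping antisense genes are uncertain. In each lane genes with 2 counts outnumbered those with 1 by 1.69 to 2.04 times, so counts may not be independent fragments.

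Lanes were summed, and all 8 libraries (4 groups of 2) were fitted in edgeR 4.0.16 (R 4.3.3) after filterByExpr (16057 of 27019 genes) with TMM factors and the robust quasi-likelihood test. P-values were adjusted by Benjamini-Hochberg over 16057 genes, and "rose" or "fell" means an adjusted p below 0.05. At an unadjusted p below 0.05, 5539 genes passed at day 0. Errors are standard errors. The procedure was tested on simulated data. Alternatives were DESeq2 1.42.0, limma 3.58.1, other scalings and filters, libraries left out or summed, and a block. The members and lists (56, plus 14 of markers) were chosen with earlier results of these data known. Named genes are Susd2, the 12 rising and 12 falling genes of largest fold change (average log2 CPM of at least 4), up to 4 of smallest p per list and any member of lists of up to 16. Promoters are RefSeq's (GRCm38.p6). Some genes are not reported here.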

Additional observations from a re-analysis of the deposited data

Results flagged for a closer look

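The genotype difference differed between the days for 2164 genes by edgeR's interaction test. These were 13.5% of all genes tested. Members whose interaction was called numbered 7 of 14 in the AP-1 list, 11 of 16 in MAP kinase feedback and 30 of 42 in G2 and mitosis. They numbered 70 of 90 among cytosolic ribosomal proteins and 12 of 16 among IRG and GBP GTPases. The interaction contains the day 0 difference, and the lists were chosen with earlier results of these data known, which can raise these shares.

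Lmna, Pcyt1a, Furin and Pim3 rose at day 0 and fell at day 3, and the difference between the days was called for each. The log2 fold change at day 0 minus that at day 3 was 2.19 for Lmna, which encodes a nuclear lamin, 0.83 for Pcyt1a, an enzyme of phosphatidylcholine synthesis, 0.72 for Furin, a protease of the secretory pathway, and 1.03 for Pim3, a serine kinase. Lmna stood at 5.06 and 4.82 CPM in WT and 9.11 and 9.71 CPM in Susd2-/- libraries at day 0, and at 7.30 and 5.20 against 2.43 and 2.76 CPM at day 3. Pim3 stood at 42.6 and 38.7 against 64.2 and 60.4 CPM at day 0, and at 133 and 137 against 104 and 98.7 CPM at day 3. In both genes the groups did not overlap on either day, but they were picked by their calls on both days. At day 0, both Susd2-/- libraries lay above both WT libraries in 33.6% of all genes.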

How the results depend on the processing

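The count of genes changed at day 0 (3792) stayed within 1.5 times under DESeq2, limma voom, RLE, upper-quartile and total-count scaling, TMM without ribosomal protein and mitochondrial genes, 2 other filters, halved counts and the day 0 libraries alone, with 3521 to 5607 calls. Rises made up 44.4% to 56.6% of the calls over all settings. With the day 0 libraries alone, 2966 genes fell, 305 of them at least 2-fold. Without 1 library the counts ran from 2000 to 2452 changed, 943 to 1134 rising, 1022 to 1318 falling, and 203 to 225 and 102 to 159 changing at least 2-fold up and down. With the libraries of a genotype counted as 1, 776 changed (361 rose, 415 fell; 131 and 62 at least 2-fold). At day 3 the count of 22 became 12 with the day 3 libraries alone, 66 with DESeq2, 138 with no filter and 6 to 380 without 1 library (251 without WT library 1, 380 and 6 without Susd2-/- library 1 and 2), and 1267 genes passed an unadjusted p below 0.05. The interaction count ran from 1058 to 2481 without 1 library. With the library number as a replicate block, 3406 genes changed at day 0, 17 at day 3 and 1796 had an interaction. Same-numbered libraries did not deviate together (correlation of deviations 0.00859 at day 0 and -0.0104 at day 3). At day 0 this cannot exclude pairing, because the WT libraries differed little more than lanes of 1 library. Their chi-square over its degrees of freedom was 3.37, against 3.01 to 3.17 between lanes. None of the named genes called at day 0 changed direction under the 16 alternatives. Of 302 named genes called at day 0, 167 kept the call under every one, 80 lost it without 1 day 0 library and 128 with the libraries counted as 1. The causes were not tested. Depth limits genes of few counts, such as Susd2 in the Susd2-/- libraries.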

Other observations

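Of 18 circadian clock genes 5 rose and 1 fell (median 0.18), all 6 of them among the 13 repressor and output genes. None of the 5 activator genes passed, although 4 were higher, and the difference between these sets was not tested. Per1, a clock repressor that cAMP and glucocorticoid signals also induce, rose from 57.0 and 62.6 to 182 and 191 CPM (1.64 ± 0.078, adjusted p = 1.01e-10), Nfil3 from 5.38 and 5.94 to 17.0 and 14.5 CPM and Ciart from 3.25 and 2.19 to 7.56 and 9.71 CPM. Nr1d2, the member that fell (42.9 and 40.0 to 29.3 and 32.0 CPM), was chosen after its values were seen, and its call was lost without any 1 library. The labels used here give no time of day for the collection of the spleens.

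The large Zfp family of zinc finger genes leaned the other way from the early genes: of 338 tested, 81 fell and 25 rose (12.1% and 11.5% of all genes did), with a median of -0.16. Without 1 library 36 to 45 fell and 10 to 14 rose, and with the libraries of a genotype counted as 1, 8 and 4. After Zfp36l2 and Zfp36, the member of smallest p-value was Zfp386, which fell from 83.0 and 76.6 to 45.9 CPM in both Susd2-/- libraries. Of 22 cholesterol synthesis genes 10 fell and 2 rose (median -0.18), with 3 to 6 falling without 1 library and 1 falling and 1 rising with the libraries of a genotype counted as 1. Insig1, which restrains the pathway when sterols are plentiful, rose from 29.5 and 32.1 to 50.2 and 47.5 CPM.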
